A study of Homo sapiens with 15 samples.

Results

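Cells expressing the mutant PIK3CA*H1047R were compared with empty-vector cells after RSAD2 knockdown and in the absence of insulin. The comparison rests on 6 of the 15 RNA-seq libraries analysed here, chosen by the siRNA, plasmid and treatment that the labels give. The study used 12Z cells, an immortalized epithelial line from endometriosis, to ask how a PIK3CA mutation, insulin and RSAD2 shape gene expression. The other 9 libraries are siRSAD2 cells with insulin and either plasmid (3 each), and cells with non-targeting siRNA, empty vector and vehicle (3).

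The 3 H1047R libraries come from cells given an siRNA pool against RSAD2 (siRSAD2), then a pBabe plasmid carrying PIK3CA*H1047R, then vehicle. The 3 empty-vector libraries come from cells given the same siRNA pool, then pBabe without an insert, then vehicle. Plasmid was transfected 24 h after siRNA. Serum was later removed for 4 h before 24 h of vehicle. Knockdown, plasmid transfection and serum starvation were therefore shared by both groups, and the effect of H1047R without knockdown was not analysed here. Transfection was transient and no clone was selected, so the libraries average transfected and untransfected cells. In such bulk samples, more cells with a transcript and more transcript per cell cannot be told apart.

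PIK3CA encodes the catalytic subunit p110α of phosphatidylinositol 3-kinase, which makes the membrane lipid PIP3 and activates AKT. The H1047R substitution in its kinase domain is a common activating mutation of endometrial and other cancers. Type I and type III interferons act through receptor-bound JAK kinases and STAT and IRF transcription factors, which switch on antiviral genes. RSAD2, which encodes the antiviral enzyme viperin, is one of these genes.

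Reads assigned to genes totalled 23.6, 39.7 and 19.5 M in H1047R libraries, against 29.3, 26.3 and 29.0 M in empty-vector libraries. A pair of libraries stood apart. Empty-vector replicate 3 had 8.31% unmapped reads, against 4.16% and 4.40% in the other empty-vector libraries, and 486 genes were over 3 times higher in it than in each of the other 14 libraries. Replicate 3 of the empty-vector insulin group lies outside the comparison, but resembled H1047R libraries in its share of reads on the forward strand. Results that rest on either library are given with that library's values. Epithelial markers summed to 2023 to 2136 CPM in H1047R cells, against 1991 to 2130 CPM in empty-vector cells, and 0 of 14 measured passed the test. Stromal markers summed to 3270 to 3346 CPM in H1047R cells, against 3265 to 3351 CPM in empty-vector cells, and 0 of 15 passed. CPM stands for counts per M library reads after TMM scaling.

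PIK3CA (ENSG00000121879.5, hg38 chromosome 3, 179148114 to 179240093, plus strand) checked the plasmid labels. It had 212, 199 and 223 CPM in H1047R libraries, against 92.1, 84.5 and 90.6 CPM in empty-vector libraries. The groups stood far apart, with a log2 fold change of 1.25 ± 0.05 (SE, n = 3 each), or 2.37-fold, at an edgeR adjusted p of 2.32e-16. Endogenous and plasmid transcripts carry the same gene identifier in these counts, so their parts cannot be told apart.

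The libraries were counted on the reverse strand, and forward-strand reads served as a check. Forward and reverse name the read orientation relative to each gene and not a strand of the genome. Those of PIK3CA numbered 194, 280 and 204 in H1047R libraries, against 15, 14 and 16 in empty-vector libraries. Forward reads were 3.84 ± 0.52% of PIK3CA reads in H1047R cells and 0.601 ± 0.037% in empty-vector cells (SD, n = 3 each). On the CPM scale the forward signal was 8.50 ± 1.68 in H1047R cells and 0.537 ± 0.018 in empty-vector cells, a ratio of 15.8. After subtraction of forward from reverse counts the PIK3CA ratio was 2.31.

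RSAD2 (ENSG00000134321.12, hg38 chromosome 2) was low in both groups. It had 0.624, 1.41 and 0.659 CPM in H1047R libraries, against 0.691, 0.0769 and 0.208 CPM in empty-vector libraries. These are 15, 56 and 13 reads in H1047R libraries, against 20, 2 and 6 reads in empty-vector libraries. The groups overlapped and the log2 fold change of 1.50 ± 0.46 missed the threshold (edgeR adjusted p = 0.108). The non-targeting siRNA libraries had 3.003, 3.16 and 3.69 CPM, above each of the 6 knockdown libraries.

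Interferon response genes rose with H1047R, in larger number than the genes of any other list examined, though this list was also the longest. Of 105 measured members of an interferon response list, 27 rose and 0 fell, and 20 of the 27 encode antiviral effectors such as OAS2, IFI44, DDX60 and MX1. Their log2 fold changes had a median of 0.61. Across all 23184 genes tested, 316 (1.36%) passed an edgeR adjusted p of 0.05. Of these, 144 rose (0.621%) and 172 fell (0.742%). The whole interferon list had a median log2 fold change of 0.14, beside 0.00 over all genes tested, and 79 of its 105 members lay above 0. For 35 of the 105 every H1047R library exceeded every empty-vector library, as it did for 10.0% of all genes tested. The list summed to 6369 to 6796 CPM in H1047R libraries, against 5700 to 6325 CPM in empty-vector libraries. Non-targeting siRNA libraries with empty vector summed to 6416 to 6610 CPM, within the H1047R range.

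IFI44, an interferon-induced antiviral protein, had 14.7, 18.2 and 17.2 CPM in H1047R libraries, against 9.51, 9.99 and 7.08 CPM in empty-vector libraries. All 3 H1047R libraries exceeded all 3 empty-vector libraries. The log2 fold change was 0.92 ± 0.11 (SE), or 1.90-fold (edgeR adjusted p = 3.21e-05). DDX60, a helicase that promotes RNA sensing by RIG-I, had 67.1, 77.6 and 76.5 CPM in H1047R libraries, against 47.4, 54.1 and 37.95 CPM in empty-vector libraries. Its groups also stood apart, by 0.67 ± 0.08 on the log2 scale (edgeR adjusted p = 2.01e-05). HERC6, a HERC family protein induced by interferon, had 30.2, 31.6 and 30.5 CPM in H1047R libraries, against 20.1, 22.6 and 16.5 CPM in empty-vector libraries. It rose by 0.65 ± 0.08 (edgeR adjusted p = 7.37e-05).

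The oligoadenylate synthetase family detects double-stranded RNA and, apart from OASL, activates RNase L. OAS2 had 28.7, 42.0 and 25.0 CPM in H1047R libraries, against 12.7, 24.1 and 10.5 CPM in empty-vector libraries. The lowest H1047R library lay just above the highest empty-vector library, and the log2 fold change was 1.05 ± 0.19 (edgeR adjusted p = 0.003). OASL, which enhances RIG-I signalling, had 31.7, 46.6 and 41.7 CPM in H1047R libraries, against 22.1, 24.6 and 21.0 CPM in empty-vector libraries, with a log2 fold change of 0.83 ± 0.13 (edgeR adjusted p = 0.000875). OAS1 rose by 0.83 ± 0.17 on the log2 scale.

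MX1 and MX2 encode dynamin-like GTPases that block viral replication. MX1 had 54.4, 68.7 and 45.7 CPM in H1047R libraries, against 26.45, 49.9 and 25.2 CPM in empty-vector libraries. Its groups overlapped, because empty-vector replicate 2 exceeded H1047R replicate 3, and the log2 fold change was 0.75 ± 0.16 (edgeR adjusted p = 0.0169). MX2 gave 1.09 ± 0.22. IFI6, which protects the endoplasmic reticulum from flavivirus replication, had 81.7, 70.3 and 71.7 CPM in H1047R libraries, against 32.5, 63.0 and 31.9 CPM in empty-vector libraries (log2 fold change 0.82 ± 0.14). Empty-vector replicate 2 was the highest of its group for OAS2, MX1 and IFI6. The same held for IFI44, DDX60, HERC6 and OASL, and for ISG15 and HERC5 below. The 51 measured antiviral effectors summed to 2786, 3017 and 2731 CPM in H1047R libraries, against 2313, 2728 and 2299 CPM in empty-vector libraries. The lowest H1047R sum thus lay just above the highest empty-vector sum. Non-targeting siRNA libraries with empty vector summed to 2624 to 2774 CPM. Smaller rises were seen for IFIT1 (0.39 ± 0.08), which binds foreign RNA, for IFIT3 (0.33 ± 0.07), and for SAMD9L (0.43 ± 0.09), a restriction factor for poxviruses.

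ISG15 is a ubiquitin-like protein that HERC5 attaches to targets and USP18 removes. ISG15 had 36.2, 38.01 and 33.9 CPM in H1047R libraries, against 14.1, 25.8 and 16.6 CPM in empty-vector libraries, a log2 fold change of 0.95 ± 0.15 (edgeR adjusted p = 0.00103). HERC5 had 28.1, 31.9 and 31.8 CPM in H1047R libraries, against 20.2, 22.2 and 21.6 CPM in empty-vector libraries (log2 fold change 0.52 ± 0.08). USP18 rose by 0.58 ± 0.15 with overlapping groups. Thus 3 of the 5 measured members of this role rose, beside 0.621% of all genes tested.

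Fewer upstream members than effectors passed the test, in roles with fewer members. Of 10 measured nucleic acid sensors and adaptors, RIGI (0.46 ± 0.08) and IFIH1 (0.35 ± 0.09), the cytosolic RNA sensors, rose. These are 2 of 10, beside 0.621% of all genes tested, and 9 of the 10 lay above 0. MAVS, their mitochondrial adaptor, gave 0.04 ± 0.04. Without empty-vector replicate 3, 1 of the 10 sensors and adaptors rose. None of 9 measured receptors and kinases passed the test, and IFNAR1 (0.05 ± 0.05), JAK1 (0.00 ± 0.04) and TYK2 (0.01 ± 0.05) lay close to 0. Of 6 measured STAT and IRF factors 1 rose, beside 0.621% of all genes tested, and the median was 0.17. None of the 6 rose at the threshold without empty-vector replicate 3, without H1047R replicate 1 or after subtraction of forward counts. STAT2, a transcription factor downstream of these kinases, gave 0.17 ± 0.06 and missed the threshold (edgeR adjusted p = 0.183).

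Only 2 of 8 listed interferon ligands reached the filter of a mean of 1 count per library. IFNE had 0.291, 0.303 and 0.456 CPM in H1047R libraries, against 0.173, 0.0384 and 0.208 CPM in empty-vector libraries, and IFNL1 was at or below 0.101 CPM in all 6. Neither passed the test. Of 15 measured antigen presentation genes 1 rose, beside 0.621% of all genes tested. It was B2M, the light chain of MHC class I (0.20 ± 0.05). None of the 15 rose at the threshold without empty-vector replicate 3, without H1047R replicate 1 or after subtraction of forward counts. None of 7 negative regulators passed, among them SOCS1 (-0.19 ± 0.22) and SOCS3 (0.10 ± 0.08), inhibitors of JAK kinases.

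**Figure D1:**
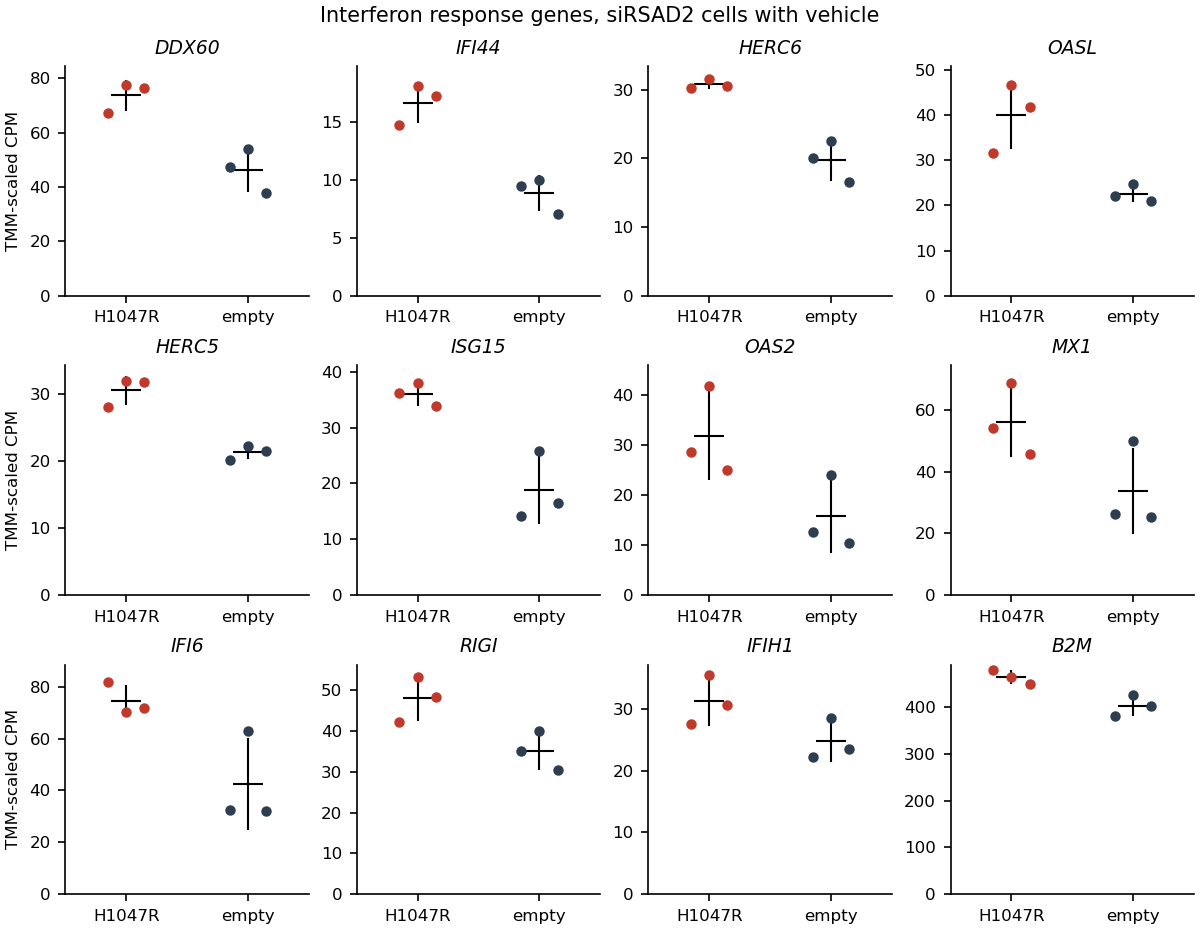
Levels of 12 interferon response genes in TMM-scaled CPM (vertical axes start at 0), with 3 H1047R libraries on the left and 3 empty-vector libraries on the right of each panel. Points are libraries in the order of replicates 1 to 3, the horizontal bar is the mean and the vertical bar the SD. IFI44, DDX60, HERC6, OASL, HERC5, ISG15, OAS2 and IFI6 separate without overlap, OAS2 narrowly, and MX1 overlaps. Empty-vector replicate 2 is the highest of its group for each of these genes.

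**Figure D2:**
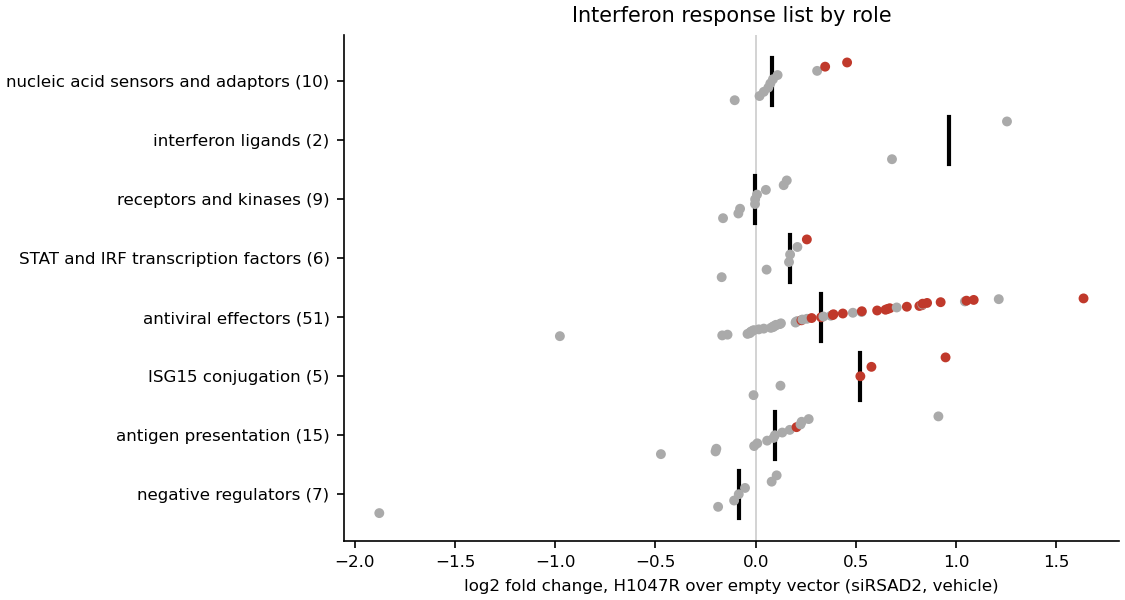
Log2 fold changes of H1047R over empty vector for the 105 measured interferon list members, by role. Each point is a gene, red where it rose at an edgeR adjusted p of 0.05 and grey where it did not pass, the black bar is the median of the role and the number of genes is in parentheses. Medians are 0.33 for effectors and 0.52 for ISG15 conjugation genes, and 0.08 for sensors, 0.00 for receptors and -0.08 for negative regulators, and the 2 ligands are at very low counts.

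Promoters are shown for 4 of the 6 list members with the smallest p values (DDX60, IFI44, HERC6, OASL, HERC5 and ISG15), because the interferon-stimulated response element binds STAT and IRF factors activated by interferon. Its core, GAAA, any 2 bases and GAAA again, was searched on both strands in the RefSeq promoter windows (GRCh38.p14, 250 bases before to 50 after each start). It occurred in 16 of the 22 called interferon members with an entry, in 29 of 57 uncalled members with an entry, and in 4.38% of all 27305 genes with a window of this length. Capitals mark matches. The stretches are chr4:168318766-168318870 (minus strand, 2 matches), chr1:78649741-78649810 (plus strand, 1 match), chr4:88456964-88457084 (plus strand, 3 matches, of which 2 overlap) and chr1:1013354-1013429 (plus strand, 2 matches that overlap).
DDX60: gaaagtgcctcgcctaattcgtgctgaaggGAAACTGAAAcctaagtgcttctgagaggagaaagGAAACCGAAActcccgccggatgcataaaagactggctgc
IFI44: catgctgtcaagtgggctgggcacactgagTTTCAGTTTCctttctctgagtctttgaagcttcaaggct
HERC5: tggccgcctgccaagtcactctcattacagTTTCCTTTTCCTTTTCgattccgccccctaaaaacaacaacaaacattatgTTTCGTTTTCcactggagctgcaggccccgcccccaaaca
ISG15: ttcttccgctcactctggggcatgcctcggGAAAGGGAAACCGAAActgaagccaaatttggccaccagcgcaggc
The HERC6 window held no match. A match describes these letters only, and binding was not measured.

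The forward-strand share of reads was higher in all H1047R libraries. Over all genes it was 6.22, 6.24 and 6.19% in H1047R libraries, against 5.81, 5.88 and 5.87% in empty-vector libraries. The means differed by 0.367 percentage points (exact two-sided permutation test, p = 0.1, the smallest p that 3 against 3 allows). Over protein-coding genes the shares were 3.10, 3.14 and 3.09% in H1047R libraries, against 2.57, 2.62 and 2.58% in empty-vector libraries. Of all 15 libraries, 7 had 3.02 to 3.44% and 8 had 2.55 to 2.64%. The 7 are the 6 H1047R libraries of both treatments and empty-vector insulin replicate 3, which had 3.12%. Reads outside genes were 4.48 ± 0.11% in H1047R libraries and 3.71 ± 0.38% in empty-vector libraries (SD, n = 3 each).

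**Figure D3:**
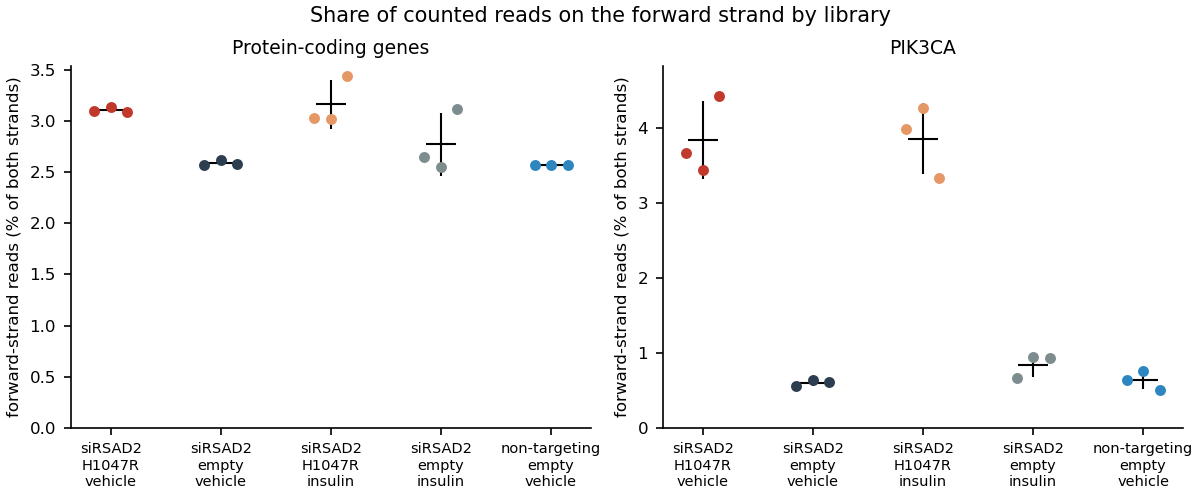
Forward-strand reads as a percent of both strands in the 15 libraries, over protein-coding genes on the left and over PIK3CA on the right, with axes from 0. Points are libraries, the horizontal bar is the group mean and the vertical bar the SD. H1047R libraries lie above empty-vector libraries in both panels, and empty-vector insulin replicate 3 joins them for protein-coding genes (3.12%) but not for PIK3CA.

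The interferon genes and the other called genes differed in that empty-vector insulin library, which carries no mutant plasmid. It exceeded both other libraries of its group for 0 of the 27 called interferon genes and for 77 of the 117 other genes called higher (65.8%). Over all genes tested it did so for 31.4%. Of 172 genes called lower, 119 (69.2%) were lower in it than in both others, beside 30.9% of all genes tested. IFI44 had 10.4 CPM in that library, against 12.4 and 13.1 CPM in replicates 1 and 2 of its group, and DDX60 had 50.5 CPM, against 53.5 and 49.3 CPM. Antiviral effectors together summed to 2321 CPM in it, against 2560 and 2550 CPM in those replicates. This is 1 library, looked at after its values were seen. Genes that move together within it are not replicates, so the counts do not show why the genes differ.

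When the forward-strand share entered the fit as a covariate, 4 genes passed in place of 316, and all 4 rose (0.0173% of genes tested). They were PIK3CA, IFI44, HERC6 and DDX60. The median SE over all genes was 0.283 with the covariate and 0.188 without it. Of the 105 interferon members, 3 passed with the covariate, and the median of the whole list was 0.17, beside 0.01 over all genes tested. IFI44 was 1.10 ± 0.16 with the covariate (edgeR adjusted p = 0.0018). Plasmid and forward-strand share moved together in the 6 libraries, so within them the covariate and H1047R cannot be told apart. With a term for each group, the covariate rests on libraries that differ within a group. Empty-vector insulin replicate 3 had 6.17% over all genes, against 5.89 and 5.77%, and H1047R insulin replicate 3 had 6.50%, against 6.18 and 6.11%. The covariate fit is therefore not independent of the comparison with that empty-vector library.

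**Figure D4:**
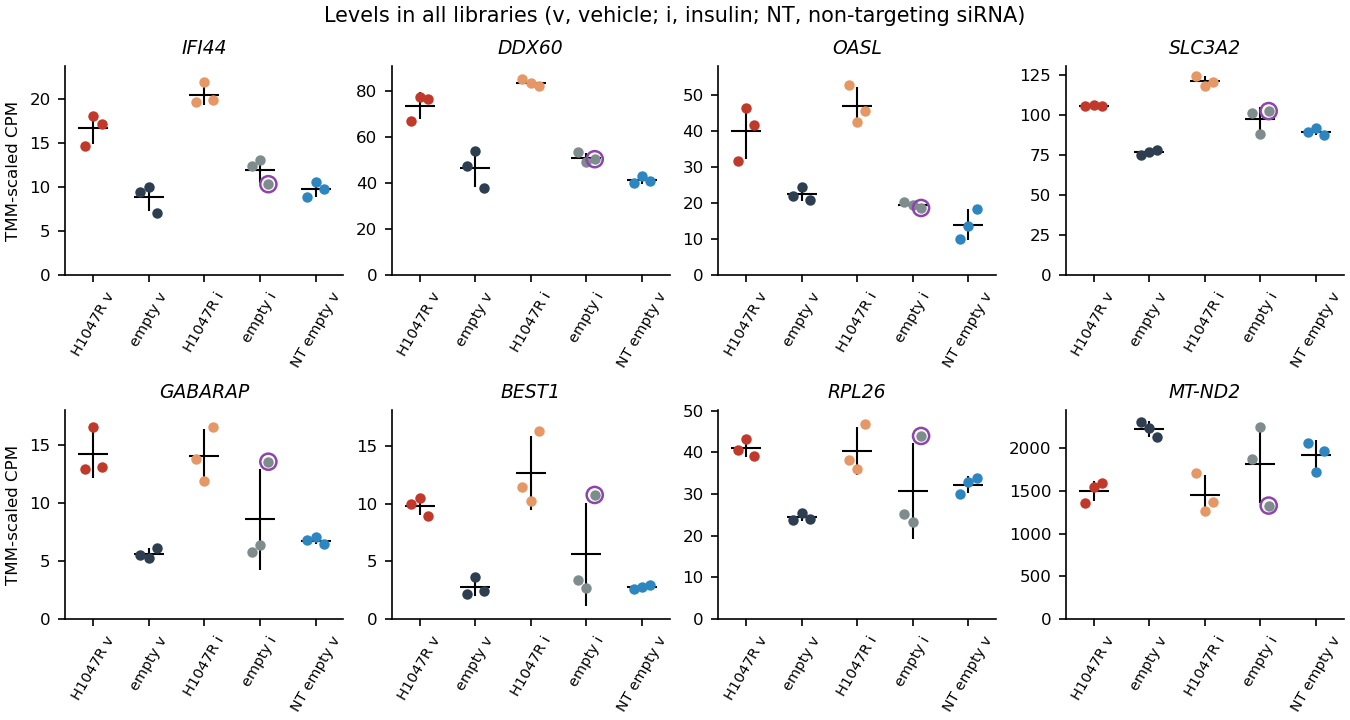
Levels of 8 genes in all 15 libraries in TMM-scaled CPM, with axes from 0, for H1047R and empty vector with vehicle (v), H1047R and empty vector with insulin (i), and non-targeting siRNA (NT). Points are libraries, bars are mean and SD, and the ring marks empty-vector insulin replicate 3. The ringed library sits with the H1047R libraries for GABARAP, BEST1, RPL26 and MT-ND2, and with its own group for IFI44, DDX60 and OASL.

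Without empty-vector replicate 3, 91 genes rose (0.398%) and 78 fell (0.341%). Interferon members that rose were then 14, in place of 27. IFI44 was 0.78 and DDX60 0.54 on the log2 scale, and both passed. Without H1047R replicate 1, 43 genes rose (0.185%), of which 14 were interferon members. After subtraction of forward from reverse counts, 56 genes rose (0.267%), and 19 interferon members were among them.

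In insulin-treated siRSAD2 cells the same plasmid comparison gave 51 rises (0.22%), with 18 interferon members among them. These cells share no library with the vehicle comparison. IFI44 had 19.7, 22.0 and 19.99 CPM in H1047R insulin libraries, against 12.4, 13.1 and 10.4 CPM in empty-vector insulin libraries, a log2 fold change of 0.77 ± 0.11 (edgeR adjusted p = 0.00048). OASL gave 1.27 ± 0.13 with insulin. In a test of the difference between treatments, 0 genes passed in edgeR, 1611 had an unadjusted p under 0.05 and the smallest adjusted p was 0.493. The interaction of IFI44 was -0.16 on the log2 scale (edgeR adjusted p = 0.884).

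Of 65 measured components of the PI3K and AKT pathway, 1 rose and 2 fell, beside 0.621% and 0.742% of all genes tested, and the median log2 fold change was -0.01. Without H1047R replicate 1 none of the 3 passed. GRB10, an adaptor that restrains insulin receptor signalling, had 54.0, 60.6 and 58.5 CPM in H1047R libraries, against 49.2, 50.2 and 46.3 CPM in empty-vector libraries (0.25 ± 0.06). GSK3A, a kinase inhibited by AKT, had 49.8, 58.6 and 53.4 CPM in H1047R libraries, against 68.3, 74.1 and 64.7 CPM in empty-vector libraries (log2 fold change -0.35 ± 0.07). AKT1S1, an AKT substrate within mTORC1, fell by 0.26 on the log2 scale.

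Among 26 FOXO-linked genes, which insulin represses in many tissues, TXNIP rose by 0.20 ± 0.05 and none fell. IRS2, a well-known member, had 45.0, 45.8 and 48.4 CPM in H1047R libraries, against 44.9, 45.3 and 42.5 CPM in empty-vector libraries, and did not pass. None of 31 inflammatory genes, 41 hypoxia and glycolysis genes, 26 YAP and TEAD targets or 30 ribosome biogenesis genes passed. CYP51A1, a sterol demethylase, was the 1 of 36 sterol and lipid synthesis genes that rose (0.56 ± 0.10). These single rises, 1 of 26 and 1 of 36, stand beside 0.621% of all genes tested and do not describe their lists. Neither TXNIP nor CYP51A1 passed without H1047R replicate 1.

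ATF4 induces amino acid transport and stress genes, and 2 of 35 listed genes rose, beside 0.621% of all genes tested. SLC3A2, the heavy chain of the LAT1 amino acid transporter, had 106 CPM in each H1047R library, against 75.4, 77.3 and 78.0 CPM in empty-vector libraries. Its log2 fold change was 0.46 ± 0.05 (edgeR adjusted p = 1.38e-05). In insulin-treated cells it had 125, 118 and 121 CPM with H1047R, against 101, 88.2 and 103 CPM with empty vector. ATF3, a stress-induced transcription factor, had 14.9, 16.1 and 14.8 CPM in H1047R libraries, against 10.2, 10.5 and 10.4 CPM in empty-vector libraries. It rose by 0.56 ± 0.09.

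Of 34 immediate early and MAPK genes, EGR1 and ATF3 rose and FOSL1 fell, beside 0.621% higher and 0.742% lower of all genes tested. ATF3 is also on the ATF4 list, so its call is counted in both. FOSL1 did not pass without H1047R replicate 1 or without empty-vector replicate 3. EGR1, a growth factor-induced transcription factor, had 33.3, 35.5 and 33.3 CPM in H1047R libraries, against 27.2, 25.6 and 21.5 CPM in empty-vector libraries (0.46 ± 0.07, edgeR adjusted p = 0.00104). With insulin it had 52.1, 48.8 and 50.1 CPM in H1047R libraries, against 52.2, 47.4 and 49.0 CPM in empty-vector libraries. The interaction did not pass (edgeR adjusted p = 0.493). FOSL1, an AP-1 subunit, gave -0.26 ± 0.06.

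Growth and matrix lists held few calls, where 0.621% of all genes tested rose and 0.742% fell. PLK1, a mitotic kinase on the cell cycle list, fell by 0.20 on the log2 scale. MDM2, the ubiquitin ligase of p53, was the 1 of 25 p53 targets that rose (0.19 ± 0.05). Of 78 matrix and adhesion genes, POSTN, a matrix protein, fell by 0.29, and ITGA2, a collagen-binding integrin, rose by 0.20. PLK1, MDM2 and ITGA2 did not pass without H1047R replicate 1 or without empty-vector replicate 3.

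Mitochondrial transcripts were lower in H1047R cells, and MT-ND2 was also low in empty-vector insulin replicate 3. Of 13 mitochondrially encoded genes, 7 fell and 1 rose, beside 0.742% and 0.621% of all genes tested, with a median log2 fold change of -0.39. The falls were 0 without H1047R replicate 1, 1 with DESeq2 and 1 after subtraction of forward counts. MT-ND2, a subunit of respiratory complex I, had 1363, 1542 and 1587 CPM in H1047R libraries, against 2307, 2235 and 2126 CPM in empty-vector libraries (-0.57 ± 0.11). Empty-vector insulin replicate 3 had 1327 CPM, against 1868 and 2248 CPM in the others of its group. With the covariate the mitochondrial median was -0.05. MT-ATP8, which overlaps MT-ATP6, was the gene that rose (0.51 ± 0.08).

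Cytosolic ribosomal protein genes gave 8 rises and 0 falls among 78 measured, beside 0.621% and 0.742% of all genes tested, with a median of 0.06, and -0.01 with the covariate. The rises were 1 without H1047R replicate 1, 3 after subtraction of forward counts and 15 with the 6 libraries alone. RPL26, a large subunit protein, had 40.5, 43.2 and 39.1 CPM in H1047R libraries, against 23.8, 25.5 and 24.0 CPM in empty-vector libraries. Its value in empty-vector insulin replicate 3 was 43.9 CPM, and its log2 fold change was 0.75 ± 0.13 without and 0.13 ± 0.12 with the covariate. GABARAP, an ATG8 protein of autophagosomes, had 12.9, 16.6 and 13.1 CPM in H1047R libraries, against 5.50, 5.30 and 6.14 CPM in empty-vector libraries. That insulin library had 13.6 CPM of GABARAP, against 5.82 and 6.40 CPM in the others of its group. LDHB, a lactate dehydrogenase subunit, gave 0.90 ± 0.16 and, with the covariate, 0.24 ± 0.18.

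Some rises lay opposite abundant genes. BEST1, a chloride channel gene, had the largest log2 fold change among named genes (1.85 ± 0.28), with 10.0, 10.5 and 8.92 CPM in H1047R libraries, against 2.21, 3.61 and 2.43 CPM in empty-vector libraries. Of its reads 99.5% were forward-strand reads, and the ferritin gene FTH1 overlaps it on the opposite strand. SNX32 and JSRP1 lie opposite CFL1 and OAZ1, and 99.2% of the reads of each were on the forward strand. Of the 144 genes called higher, 32 had over 50% forward reads (22.2%), beside 9.66% of all genes tested. After subtraction of forward counts, BEST1, SNX32 and JSRP1 no longer reached the filter of a mean of 1 count per library. With unstranded counts BEST1 gave 0.91 (edgeR adjusted p = 0.082), SNX32 0.92 (edgeR adjusted p = 0.456) and JSRP1 -0.15, and none passed. Whether such reads come from these genes or their partners was not tested.

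Of the 172 falls, 40 were genes over 3 times higher in empty-vector replicate 3 than in each other library, beside 486 of 23184 genes tested. Pseudogenes made up 38 of the 172 falls and 6 of the 144 rises. Their share of gene counts was 0.444% in that replicate, against 0.328% and 0.326% in the other empty-vector libraries. PTPRC, the leukocyte antigen CD45, had 0.749, 0.909 and 1.11 CPM in H1047R libraries, against 1.35, 0.884 and 9.03 CPM in empty-vector libraries. LCP1, an actin-bundling protein of leukocytes, had 13.2 CPM in that replicate and at most 0.449 CPM in the other 5 libraries. Without that replicate PTPRC gave -0.29 (edgeR adjusted p = 0.85). Immune markers summed to 26.1 to 30.7 CPM in H1047R libraries, against 30.1 to 37.6 CPM in empty-vector libraries, and 7 of 12 were measured. Their part in the result was not tested.

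Among genes whose fall did not rest on that replicate, MBD6, a methyl-CpG-binding domain protein, had 51.4, 50.2 and 42.7 CPM in H1047R libraries, against 65.4, 64.6 and 62.7 CPM in empty-vector libraries (-0.41 ± 0.08). TUBB4A, a beta-tubulin, gave -0.55 ± 0.11 and, with the covariate, -0.54 ± 0.16. HOXA7, a homeobox factor, gave -0.45 ± 0.09 and, with the covariate, -0.16 ± 0.12.

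**Figure D5:**
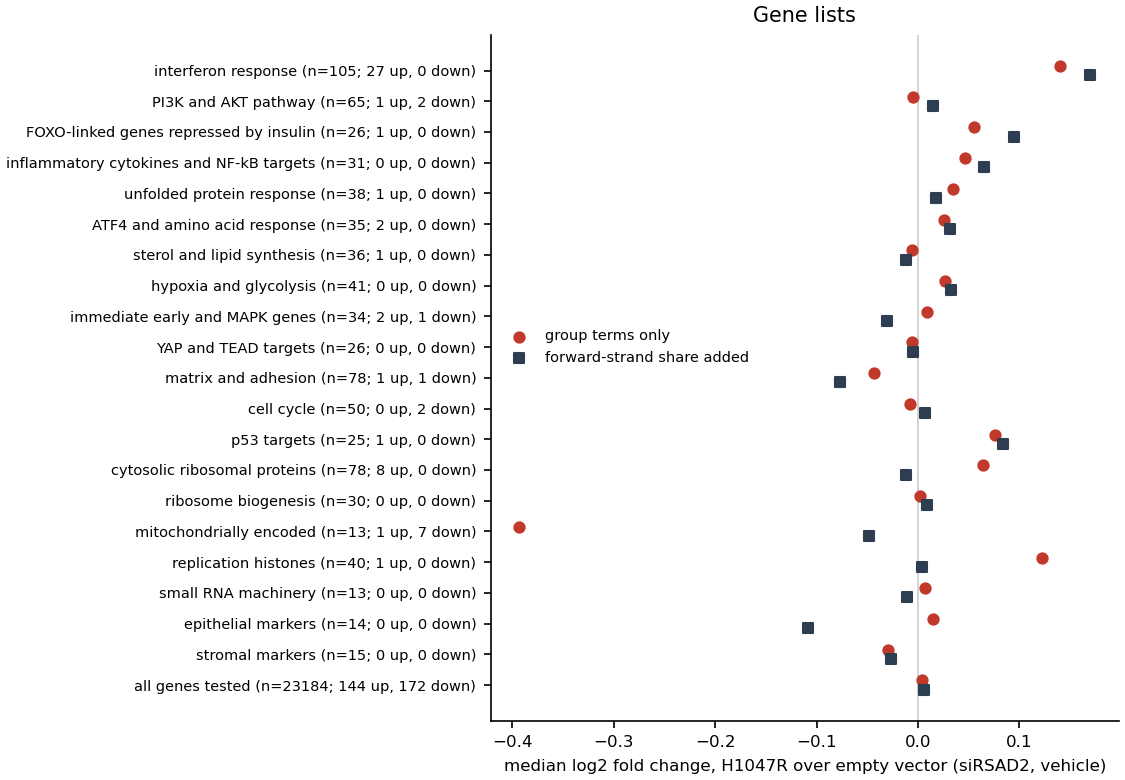
Median log2 fold change of H1047R over empty vector for 20 gene lists and all genes tested, from the fit with group terms only (red circles) and with the forward-strand share added (dark squares). Labels give the members measured and those that rose or fell. The interferon median stays right of 0 in both fits (0.14 and 0.17), while the mitochondrial median lies at -0.39 without and -0.05 with the share. The fit with the share draws on empty-vector insulin replicate 3, among other libraries.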

How the data were processed

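RNA-seq was analysed from 6 libraries of siRSAD2 12Z cells (3 H1047R, 3 empty vector, vehicle), within a fit of all 15. The authors trimmed reads with cutadapt and Trim Galore, used STAR for alignment (hg38) and deposited its raw counts per gene without normalisation. Versions are not given in the sources used here. The methods number the annotation as a mouse release, but the gene identifiers are human. Reverse-stranded counts were used, and 60357 of 60617 identifiers matched GENCODE 44 without version. The methods describe replicates as independent experiments. A set of 4 summary entries per library was kept apart.

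The 23184 genes averaging 1 count or more were tested by the quasi-likelihood F test of edgeR 4.0.16 under R 4.3.3, with TMM scaling and 1 coefficient for each group (10 residual degrees of freedom, biological coefficient of variation 0.0571), adjusted by Benjamini-Hochberg at 0.05. SE is the log2 fold change over the square root of F. Intervals and tests rest on the spread between libraries, and depth was 19.5 to 39.7 M gene counts. The members and the 22 gene lists (838 of 840 entries matched) were chosen with earlier results of these data known. The named genes were PIK3CA, RSAD2, IFI44, the 12 largest changes per direction among protein-coding genes with at least 1 CPM and no overlap that also passed without empty-vector replicate 3, and up to 4 called members per list. Other list members are named to describe their role and were chosen after their values were seen, as were LCP1 and the comparison with empty-vector insulin replicate 3.

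Alternatives were DESeq2 1.42.0, RLE factors, other filters, a threshold of 0.001, other strand counts, the forward-strand share as a covariate, the 6 libraries alone, a replicate block, and each library left out. On simulated counts of this comparison (22634 genes), 60.5% of genes changed 1.25-fold, 77.8% changed 1.5-fold and 84.6% changed 2-fold were recovered at 1 CPM or more, with 3.12% false calls. The simulation held no forward-strand difference between groups and no library like empty-vector replicate 3. Its share of false calls therefore does not cover calls that come from either. Results for some genes are not reported here.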

Additional observations from a re-analysis of the deposited data

Results flagged for a closer look

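Forward-strand reads lie outside the reverse-stranded counts that the comparison used. For PIK3CA they made up 3.84% of reads in H1047R vehicle libraries and 0.601% in empty-vector vehicle libraries. The signal was looked at again because it stood above the control libraries. Its source was not tested.

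The forward-strand share of protein-coding reads was 3.12% in empty-vector insulin replicate 3, against 2.64% and 2.55% in replicates 1 and 2 of that group. This library carries no H1047R plasmid and lies outside the comparison, and its share was within the range of the 6 H1047R libraries.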

How the results depend on the processing

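Counts of genes changed (total, higher, lower; 316, 144 and 172 as reported) depended on several choices. They were 707, 285 and 422 without a filter, 11, 10 and 1 at an adjusted p of 0.001, 116, 56 and 60 after subtraction of forward counts, 546, 234 and 312 with the 6 libraries alone, and 4, 4 and 0 with the forward-strand covariate. Leaving out 1 library in turn gave 64 to 305 in total, 43 to 102 higher and 21 to 209 lower. Chosen after the data were seen, the 6 libraries without empty-vector replicate 3 gave 697, 327 and 370, the covariate without empty-vector insulin replicate 3 gave 6, 3 and 3, and the main design without that library gave 461 in total, of which 289 lower. The cause was not tested. DESeq2 called 385 genes, of which 254 were shared. Same-numbered libraries did not deviate together (correlations -0.01, 0.02 and -0.04). The replicate block gave 271 calls, and the replicate block with the covariate gave 1, 1 and 0, which was PIK3CA. The forward-strand difference was 0.367 over all genes and 0.52 over protein-coding genes. Signs turned for JSRP1 with unstranded counts (-0.15), and for RPS28 (-0.0067) and PTPRC (0.59) in the replicate block with the covariate.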

Other observations

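A few host transcripts of small nucleolar RNAs were looked at after their values were seen, with no list behind them, and are given as single values. SNHG12 had 9.95, 7.63 and 11.2 CPM in H1047R libraries, against 6.33, 5.84 and 4.06 CPM in empty-vector libraries (log2 fold change 0.80 ± 0.16). It gave 0.63 without empty-vector replicate 3 (edgeR adjusted p = 0.0616) and 0.91 ± 0.24 with the forward-strand covariate (edgeR adjusted p = 0.368). SNHG5 had 112, 106 and 99.2 CPM in H1047R libraries, against 75.0, 89.1 and 77.9 CPM in empty-vector libraries (0.39 ± 0.06). It gave 0.36 without that replicate (edgeR adjusted p = 0.0073) and 0.24 ± 0.09 with the covariate (edgeR adjusted p = 0.574).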
